A study of Mus musculus with 80 samples.

Results

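The comparison described here sets inguinal white adipose tissue (iWAT) of mice labelled UCP1 KO against brown adipose tissue (BAT) of WT mice, to show which brown fat genes the browned white depot reached and which it did not. It rests on 10 of the 80 RNA sequencing libraries of the study, 5 of KO-labelled iWAT and 5 of WT BAT, chosen by the tissue and genotype that the labels give. All animals were male on a C57BL/6J background, were kept at 30 °C until an age of 10 to 12 weeks and were then moved to standard room temperature with a high-fat diet for 3 weeks, so cooling and diet were shared by both groups. The groups differ in depot and in genotype at once, and these cannot be told apart in their difference. WT iWAT (5 libraries) therefore stands beside them as the starting level of the white depot. BAT of UCP1 KO mice (5 libraries) entered the fit, and BAT and iWAT of FGF21 KO mice (10 libraries), kept in the same way, served to define brown genes. UCP1 KO mice carry a targeted gene for uncoupling protein 1 in all tissues, and those of this cohort came from crosses of UCP1 KO with FGF21 KO mice. The labels link no libraries of the same mouse, so p-values measure the spread between these libraries.

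Brown adipocytes burn fatty acids in densely packed mitochondria, and UCP1 lets protons back across the inner membrane so that the energy leaves as heat. White adipocytes store triglyceride and hold few mitochondria, but in cold, under beta-adrenergic drive or in response to FGF21 some cells of the inguinal depot take on brown features, which is called browning or beiging. A brown adipocyte is known by a thermogenic programme (UCP1, CIDEA, DIO2 and the oxidative machinery) that beige cells share, and by lineage genes such as Zic1 that mark the developmental origin of the depot and that beige cells do not share.

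The gene counts of a library summed to 33654057 to 36588351 in KO-labelled iWAT and to 30298958 to 37339633 in WT BAT. Expression is given as CPM, counts relative to a library size scaled with TMM factors, and differences are log2 differences of edgeR's fit of 20 libraries (WT and UCP1 KO of both fat depots). A gene was called at a Benjamini-Hochberg adjusted p under 0.01. The mean log2 level of 6 adipocyte genes such as Adipoq and Plin1 overlapped between the groups, 9.81 to 10.6 in KO-labelled iWAT and 10.2 to 10.5 in WT BAT, and 3 of the 6 were within 2-fold (47.0% of all genes were), 1 was below WT BAT and 2 were not resolved. Markers of other cells moved with the depot. All 7 macrophage genes, all 6 progenitor genes and 7 of 8 lymph node genes were called higher in KO-labelled iWAT, against 23.7% of all genes, and the score of the macrophage genes was 5.71 to 7.43 against 3.82 to 4.22. Without the 3 iWAT libraries with a lymph node score over 4, 3 of the 8 lymph node genes were called, and their median difference of 5.72 became 0.91. Library 2 of KO-labelled iWAT had a lymph node score of 6.93 while the other 4 were at or under 0.238, and libraries 1 and 5 had skeletal muscle scores of 10.1 and 4.41 while the other 3 lay between 1.32 and 1.57. In WT iWAT, libraries 4 and 5 had both scores high, 6.05 and 6.52 for lymph node and 5.65 and 9.14 for muscle. None of the 10 muscle, 3 epithelial and 5 Schwann cell genes tested was called between KO-labelled iWAT and WT BAT, 1 of 6 endothelial genes was below WT BAT, and both red cell genes were within 2-fold. The fits without those libraries, and with the muscle score as a covariate, stand beside the results they touch. In bulk tissue fewer cells of a type and less RNA per cell cannot be told apart.

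Ucp1, on chromosome 8 of GRCm38 from 83290352 to 83298452 in the GENCODE annotation, was counted in every BAT and iWAT library that the labels call UCP1 KO. In KO-labelled iWAT the 5 libraries had 199, 86.4, 371, 271 and 566 CPM, and in WT BAT they had 7105, 7798, 9047, 3878 and 7064 CPM. WT iWAT had 2.10 to 13.2 CPM, so the order within iWAT runs against the genotype label, whereas in BAT every library labelled UCP1 KO (643 to 1517 CPM) lay below every WT library. Counts per gene do not show whether the targeted exons were transcribed, so they are not a check of the label, and the libraries are called KO-labelled throughout. Transcript of the Ucp1 locus in KO-labelled iWAT was 4.20% of the way from WT iWAT to WT BAT, 23.4-fold below WT BAT (log2 difference -4.55, standard error 0.465, edgeR adjusted p = 1.55e-06) and 50.1-fold above WT iWAT (5.65, 1.98e-05).

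Promoters are shown for 5 genes that stand for the outcomes described next. They are Ucp1 (far below WT BAT), Dio2 (below with wide spread), the complex III core subunit Uqcrc1 (a mitochondrial gene of the common shift), Plin2 (within 2-fold) and Zic1 (at the count floor). Each is 300 bases of RefSeq sequence on GRCm38.p6, from 250 bases before the start that RefSeq annotates, which need not be that of GENCODE, to 50 after it, written 5′ to 3′ on the gene's strand. They lie at chr8:83290098-83290397 (plus strand, Ucp1), chr12:90738989-90739288 (minus, Dio2), chr9:108936398-108936697 (plus, Uqcrc1), chr4:86670010-86670309 (minus, Plin2) and chr9:91365719-91366018 (minus, Zic1). Capitals mark the motifs found.
Ucp1: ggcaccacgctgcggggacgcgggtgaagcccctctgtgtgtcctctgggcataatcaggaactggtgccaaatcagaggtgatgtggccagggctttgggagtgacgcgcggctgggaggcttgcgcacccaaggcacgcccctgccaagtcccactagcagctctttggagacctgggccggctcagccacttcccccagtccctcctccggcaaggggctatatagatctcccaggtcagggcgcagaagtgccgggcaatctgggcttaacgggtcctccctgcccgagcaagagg
Dio2: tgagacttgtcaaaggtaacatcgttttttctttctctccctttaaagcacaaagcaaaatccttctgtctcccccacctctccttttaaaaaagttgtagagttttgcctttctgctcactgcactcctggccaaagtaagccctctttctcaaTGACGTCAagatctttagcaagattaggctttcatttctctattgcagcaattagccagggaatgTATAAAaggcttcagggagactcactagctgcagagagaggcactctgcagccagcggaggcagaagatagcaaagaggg
Uqcrc1: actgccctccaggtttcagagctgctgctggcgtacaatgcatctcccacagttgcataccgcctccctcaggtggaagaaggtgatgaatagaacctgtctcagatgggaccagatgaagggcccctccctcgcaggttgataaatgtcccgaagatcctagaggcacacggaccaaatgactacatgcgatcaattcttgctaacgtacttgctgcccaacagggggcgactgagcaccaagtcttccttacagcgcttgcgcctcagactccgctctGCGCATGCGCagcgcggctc
Plin2: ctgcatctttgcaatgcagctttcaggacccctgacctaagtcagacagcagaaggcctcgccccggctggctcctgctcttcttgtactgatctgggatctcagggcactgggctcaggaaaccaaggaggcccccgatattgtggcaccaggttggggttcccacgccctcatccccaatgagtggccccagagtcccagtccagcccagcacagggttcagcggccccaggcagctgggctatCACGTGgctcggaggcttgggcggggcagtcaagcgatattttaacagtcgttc
Zic1: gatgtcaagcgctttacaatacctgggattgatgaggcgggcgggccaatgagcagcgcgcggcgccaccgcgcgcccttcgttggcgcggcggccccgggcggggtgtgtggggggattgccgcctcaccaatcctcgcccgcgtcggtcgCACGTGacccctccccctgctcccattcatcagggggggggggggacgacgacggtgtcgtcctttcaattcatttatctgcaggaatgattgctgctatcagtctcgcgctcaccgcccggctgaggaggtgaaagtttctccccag
The capitals are TGACGTCA (a cAMP response element) and TATAAA in Dio2, an NRF1 site of 10 bases in Uqcrc1 and CACGTG (an E-box) in Plin2 and Zic1. The 5 promoters were also searched on both strands for ACTTCCGG (ETS), TNAAGGTCA (ERR) and the DR1 nuclear receptor site, of which the last 2 can overlap, and none of these was found. Of all 32851 promoters of the table, 1.79% hold the cAMP response element, 13.6% TATAAA, 0.971% the NRF1 site, 7.15% the E-box, 3.89% the ETS site, 1.28% the ERR site and 0.381% the nuclear receptor site. Among brown genes (defined below) 656 of 950 had a promoter in the table. The NRF1 site was in 13 of 311 (4.18%) of those called higher in KO-labelled iWAT than in WT iWAT and in 5 of 345 (1.45%) of the others, against 2.03% of the tested genes. The E-box was in 11.6% and 9.28% (11.1% of the tested genes), the ETS site in 8.36% and 4.35% (7.82%), the cAMP response element in 3.54% and 2.32% (3.27%), TATAAA in 9.97% and 9.28% (9.55%), the ERR site in 1.61% and 1.74% (0.984%) and the nuclear receptor site in 0.322% and 0.870% (0.356%). These are counts of letters and show no binding.

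Brown genes were defined without any of the compared libraries, as the 950 genes (5.71% of 16631 tested) that were called at least 4-fold higher in BAT than in iWAT of FGF21 KO mice. KO-labelled iWAT did not reach WT BAT in most of them. Of the 950, 817 (86%) were called lower than in WT BAT, against 20% of the 16811 genes tested in that comparison, and all 817 were below WT BAT in the sense that the 95% interval was not wholly within 2-fold (11.5% of all genes). Only 19 (2%) had an interval wholly within 2-fold, against 47.0% of all genes, 0 were above WT BAT (20.6%) and 114 were not resolved. The list was picked for a depot difference of at least 4-fold, so low counts within 2-fold and above follow in part from its definition. At the 0.05 threshold 2 brown genes, Elovl3 and Bmp8b, were above WT BAT, and DESeq2 called Elovl3. The 5 libraries of each group did not overlap, with KO-labelled iWAT lower, in 819 brown genes (21.2% of all genes). Across all tested genes 3989 (23.7%) were called higher in KO-labelled iWAT, and in 3907 (23.2%) all KO-labelled libraries lay above all WT BAT libraries. With library totals in place of TMM factors, 1278 genes were lower and 8137 higher, and of the brown genes 640 were below WT BAT, 152 within 2-fold and 3 above.

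The shift from the WT iWAT level was broad and partial. The brown genes had a median log2 difference to WT BAT of -2.42 in WT iWAT and of -1.54 in KO-labelled iWAT, where all tested genes had medians of 0.13 and 0.11. Both comparisons use the same 5 WT BAT libraries. In WT iWAT 921 brown genes were called lower than in WT BAT (24.8% of all genes). A higher mean in KO-labelled than in WT iWAT was found for 910 of the 950, and 346 had every KO-labelled library above every WT iWAT library (4.78% of all genes). Called higher were 426 of the 950 (44.8%, against 3.84% of all genes) and called lower 0 (0.0654% of all genes, with 1 brown gene lower and 739 higher at an unadjusted p under 0.05).

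That last count changed with the libraries in the fit, and why it did was not tested. Fitted on the 20 iWAT libraries of all 4 genotypes, 88 of 906 brown genes tested were called higher than in WT iWAT (103 of all 17349 genes). On the 10 iWAT libraries of WT and UCP1 KO alone only Elovl3 was called (1 of all 16435 genes). In that fit 690 of 890 brown genes were higher at an unadjusted p under 0.05 and 0 lower, which was not counted over all genes. The median brown gene difference was 0.87 in the fit of both depots and in the fit of the 10, and 0.86 in that of the 20. Without the 4 iWAT libraries with a muscle score over 4, which leaves 3 per genotype, 120 were called (204 of all 16449 genes), whereas with the muscle score as a covariate 453 were (702 of all 16811 genes). Where a gene is said below to be called higher than in WT iWAT, the fit of both depots is meant. That fit estimates the spread of a gene once over all its libraries, so these calls also rest on the spread within BAT. The calls against WT BAT moved little, with 820 below without those 4 libraries, 795 without the 3 of high lymph node score and 813 when only the 10 compared libraries were fitted.

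**Figure D1:**
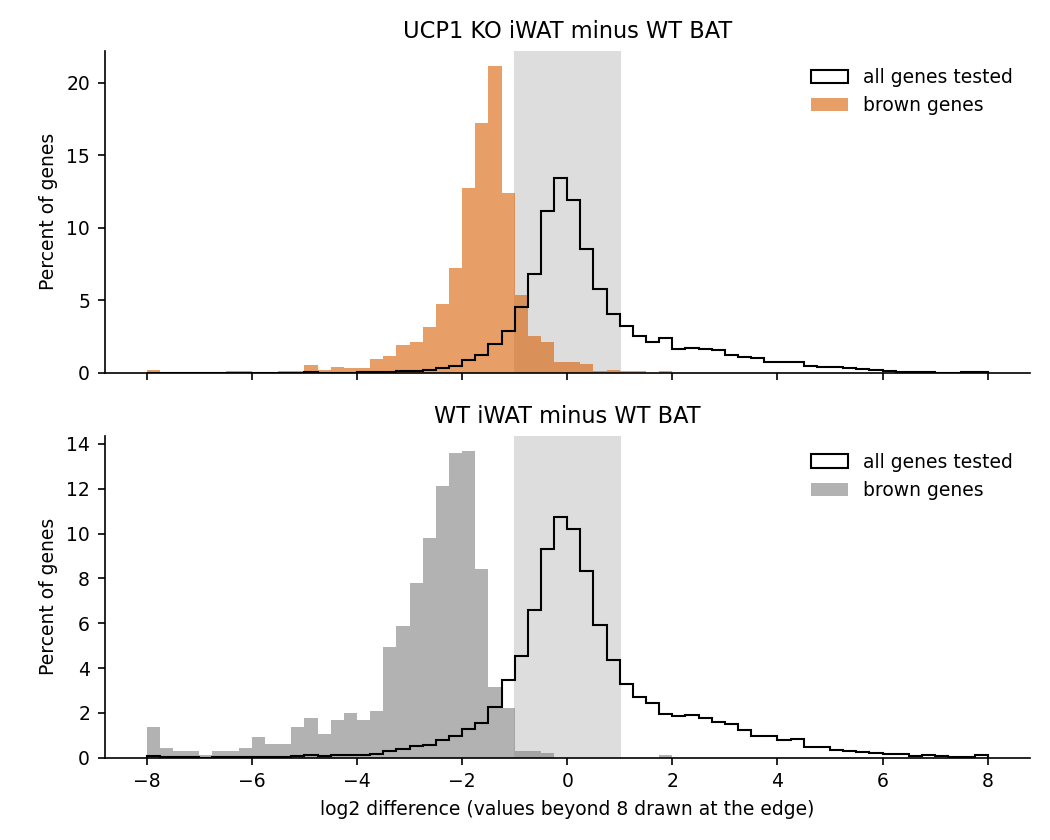
Histograms of the log2 difference to WT BAT (x axis) as percent of genes (y axis), for KO-labelled iWAT (upper panel) and WT iWAT (lower panel), with brown genes filled, all tested genes as a line and the 2-fold range shaded. The brown genes peak below -1 in both panels, with medians of -1.54 and -2.42.

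To describe how far each brown gene went, its mean CPM was placed between the WT iWAT mean (0%) and the WT BAT mean (100%). The median brown gene reached 18.2% (quartiles 12.1% and 24.6%), and 627 of the 950 (66%) lay between 10% and 30%. At the ends, 190 genes reached less than 10% and 94 less than 5%, while 60 passed 50% and 18 passed 100%. The libraries of KO-labelled iWAT differed widely among themselves, with medians of 14.4%, 1.94%, 21.9%, 20.3% and 30.9% in libraries 1 to 5 (mean 17.9% ± 10.7, SD, n = 5), against -2.92% to 1.67% in WT iWAT. The lowest is library 2, the one with the high lymph node score. The libraries with a high muscle score, 1 and 5, lie on both sides of libraries 3 and 4, whose muscle scores are low. The part of either score in these shares was not tested. Leaving out 1 library at a time moved the median between 14.8% (without KO-labelled library 5) and 23.1% (without library 2).

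**Figure D2:**
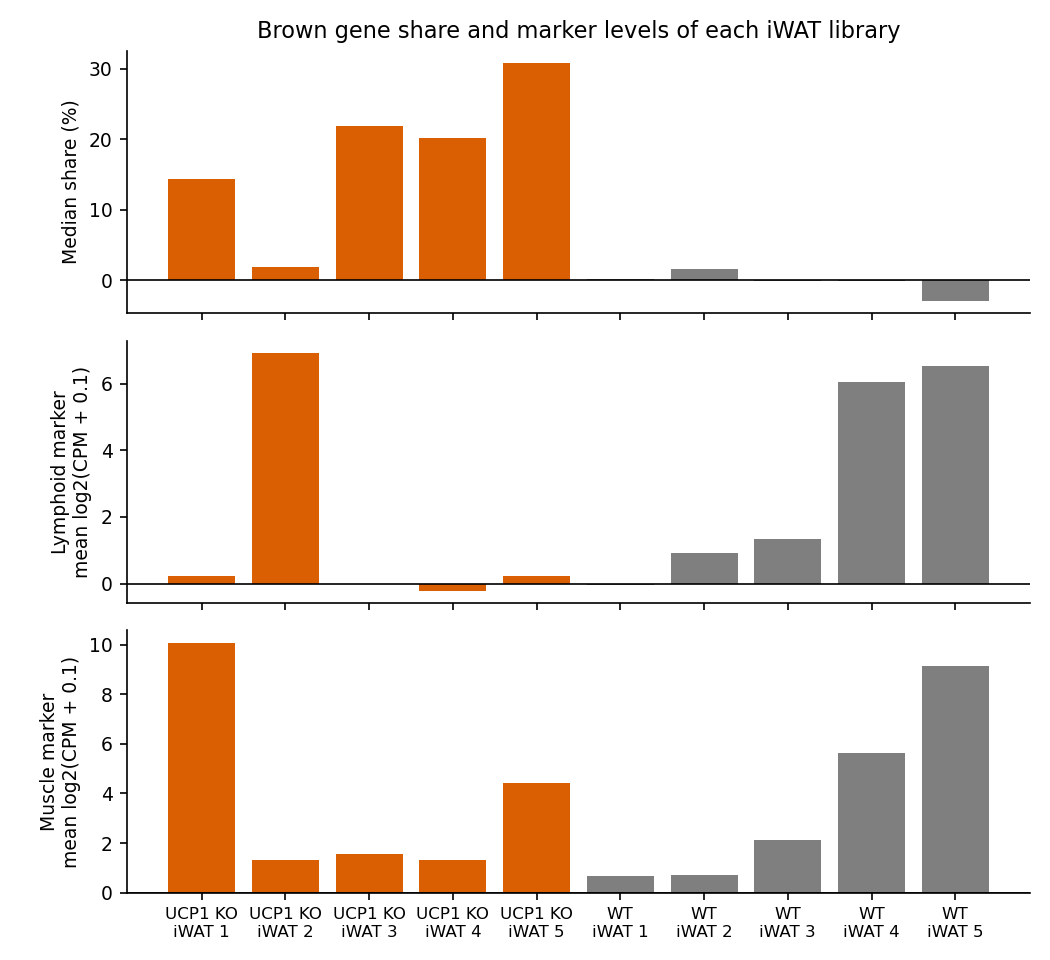
Median share of the WT iWAT to WT BAT difference over the brown genes in percent (top), and mean log2(CPM + 0.1) of 8 lymph node genes (middle) and 10 skeletal muscle genes (bottom), 1 bar per iWAT library. Library 2 of KO-labelled iWAT has a share of 1.94% and a lymph node score of 6.93, and libraries 1 and 5 have muscle scores of 10.1 and 4.41.

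The share was much alike from one mitochondrial system to the next. Its median was 17.8% for complex I (37 brown genes, range 12.1% to 24.6%), 17.6% for complexes II and III (14 brown genes), 17.9% for complex IV (12 of 15 genes tested) and 18.9% for ATP synthase (11 of 16). It was 19.5% for the mitochondrial ribosome (only 18 of 76), 17.3% for the citric acid cycle (18), 19.1% for fatty acid oxidation (20 of 22) and 17.2% for the thermogenic list (17 of 19). Members that are not brown genes have no share. Lipid synthesis stood higher, with 29.7% for 7 lipogenic genes and 24.2% for 7 triglyceride synthesis genes, and glucose use had 23.3% over 14 genes. In libraries 1 to 5 the median over complex I was 15.9%, 1.10%, 21.4%, 20.1% and 31.8%, whereas over lipogenesis it was 15.6%, 6.52%, 45.5%, 38.6% and 38.4%. These shares were compared without a test.

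**Figure D3:**
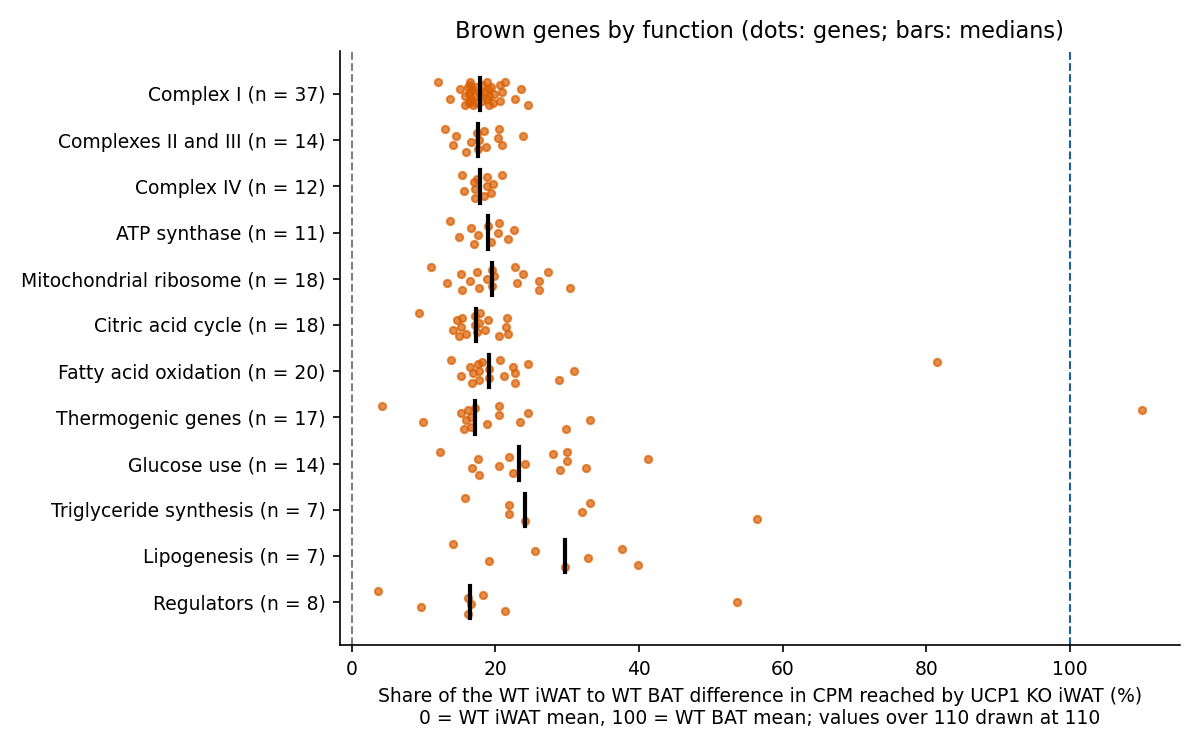
Share of the WT iWAT to WT BAT difference in CPM that KO-labelled iWAT reached (x axis, percent), 1 dot per brown gene and a bar at the median of each functional list (rows), with values over 110 drawn at 110. The medians of the respiratory complexes, citric acid cycle and fatty acid oxidation lie between 17.3% and 19.1%, and that of lipogenesis at 29.7%.

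The counts of each list that follows stand against 11.5% of all genes below WT BAT, 47.0% within 2-fold, 20.6% above, and 3.84% called higher than in WT iWAT. With library totals 808 of all 16811 genes were below, 6698 within 2-fold and 6356 above. Without the 4 iWAT libraries of high muscle score 204 of all 16449 genes were called higher than in WT iWAT. The thermogenic list holds 19 genes, known from brown and beige fat. Of these, 16 were below WT BAT, 1 (Adrb3) was within 2-fold and 2 (Elovl3 and Fabp3) were not resolved, and the median difference was -2.17 against 0.11 over all genes. Called higher than in WT iWAT were 14 (13 without the libraries of high muscle score). Cidea, which coats lipid droplets in brown adipocytes, had 276, 157, 430.2, 477 and 913 CPM in KO-labelled iWAT and 2430.5 to 2766 CPM in WT BAT. The groups did not overlap, and the difference was -2.50 (standard error 0.432, edgeR adjusted p = 0.000146), with 15.1 ± 12.0 CPM in WT iWAT. Cox8b, a cytochrome c oxidase subunit of brown fat and striated muscle, had 185, 88.5, 234, 238 and 313 CPM against 878 to 1048 CPM. It was 4.59-fold below WT BAT (log2 difference -2.20, edgeR adjusted p = 2.5e-06) and 6.04-fold above WT iWAT. Letmd1, a mitochondrial inner membrane protein that brown fat thermogenesis needs, had 124, 87.9, 215, 191 and 350.2 CPM against 891 to 1028 CPM, and was 5.0-fold below WT BAT (edgeR adjusted p = 8.18e-07). In all of these genes library 5 was the highest and library 2 the lowest of the KO-labelled group.

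The remaining thermogenic genes below WT BAT spread from -2.76 to -1.02. Dio2, the deiodinase that makes active thyroid hormone inside the cell, had 38.7, 5.90, 11.8, 8.63 and 52.7 CPM in KO-labelled iWAT and 32.8, 116, 248, 53.1 and 265 CPM in WT BAT. The groups overlap, and the difference of -2.60 (edgeR adjusted p = 0.00908) lost its call in 13 of 20 fits that each left out 1 library, and with library totals. Gk, the glycerol kinase that lets brown fat reuse glycerol, differed by -1.51 (edgeR adjusted p = 0.00818) and lost its call in 14 of the 20 and with library totals. Kcnk3 (a potassium channel, -2.17), Otop1 (a proton channel, -2.17), Plin5 (which ties lipid droplets to mitochondria, -2.09), Acot11 (an acyl-CoA thioesterase, -2.07), Cox7a1 (-2.57) and the carnitine carrier Slc25a20 (-1.73) were below WT BAT and called higher than in WT iWAT. Ppargc1a, the coactivator of mitochondrial biogenesis, was below WT BAT (-2.10, 8.07 to 46.5 CPM against 42.2 to 212) and had a difference of 1.45 to WT iWAT (edgeR adjusted p = 0.0368), and Gmpr had -2.76 and 1.46. Prdm16, the transcriptional switch to the brown fate, had 17.8 ± 4.75 CPM (SD, n = 5) against 36.1 ± 8.35 in WT BAT and 14.7 ± 3.79 in WT iWAT. It was below WT BAT (-1.02, edgeR adjusted p = 0.00091), though not called with library totals (-0.51), and its difference to WT iWAT was 0.28 with a 95% interval of -0.20 to 0.75.

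**Figure D4:**
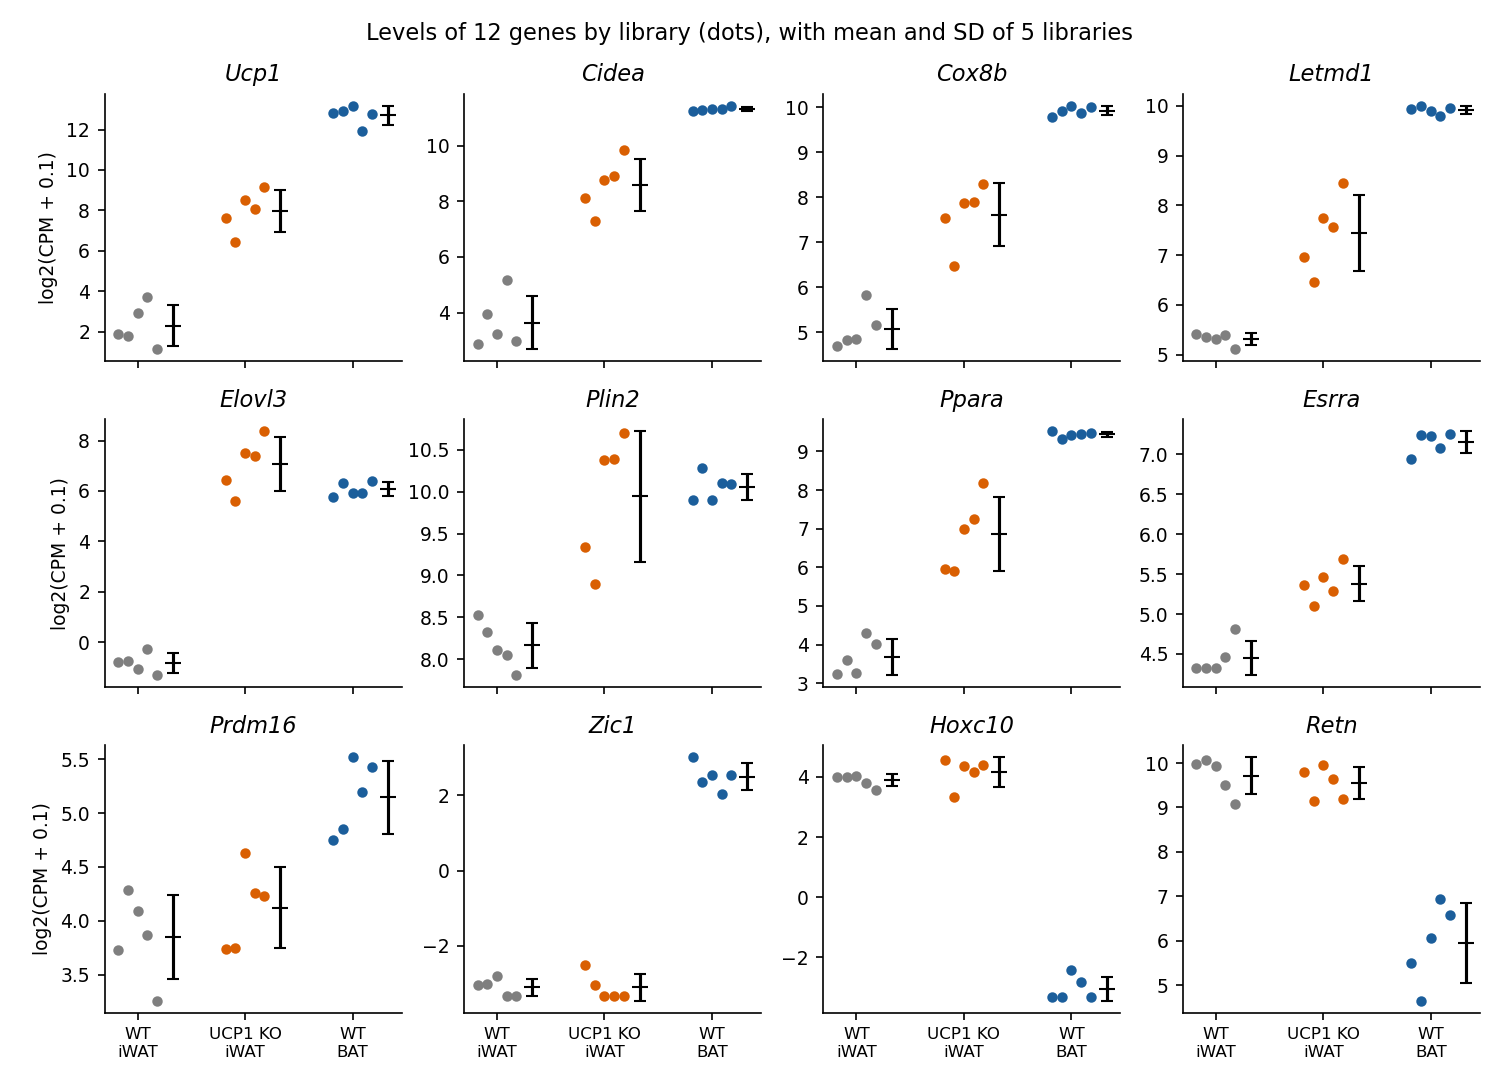
Levels of 12 genes as log2(CPM + 0.1) (y axes, each with its own range) in WT iWAT, KO-labelled iWAT and WT BAT, 1 dot per library in replicate order, with mean and SD of 5 libraries. Ucp1, Cidea, Cox8b, Letmd1, Ppara and Esrra lie between WT iWAT and WT BAT in every KO-labelled library, Elovl3 and Plin2 overlap WT BAT, Zic1 is near 0 counts in iWAT, and Hoxc10 and Retn lie above WT BAT and overlap WT iWAT.

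Few brown genes came up to the WT BAT level. Elovl3, an elongase of saturated very long chain fatty acids, had 86.4, 48.1, 181, 167 and 328 CPM in KO-labelled iWAT, against 54.6, 78.8, 60, 60.6 and 84.9 CPM in WT BAT and 0.309 to 0.730 CPM in WT iWAT. All but library 2 lay above every WT BAT library. The difference to WT BAT was 1.26 (95% interval 0.43 to 2.09, edgeR adjusted p = 0.0119), and it was called above WT BAT when KO-labelled library 1 or 2, or library 5 of UCP1 KO BAT, was left out. The difference to WT iWAT was 8.38, 333-fold, and held in the fit of the 10 iWAT libraries alone (edgeR adjusted p = 0.00232).

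Plin2, the coat protein of small lipid droplets, had 648, 478, 1326, 1346 and 1669 CPM in KO-labelled iWAT and 956, 1243, 956, 1104 and 1088 CPM in WT BAT. Libraries 3 to 5 lay above all WT BAT libraries and libraries 1 and 2 below them. Its difference was 0.03 (95% interval -0.53 to 0.60), within 2-fold, and it was called 3.77-fold higher than in WT iWAT. Of the 19 brown genes within 2-fold of WT BAT, 11 were called higher than in WT iWAT. Apart from genes with only a clone name, the most expressed of these after Plin2 were Echdc1 (which removes ethylmalonyl-CoA, a side product of fatty acid synthesis, -0.29, share 68.7%), Lonp1 (a protease of the mitochondrial matrix, -0.42, 62.8%), Acsf2 (an acyl-CoA synthetase, -0.34, 70.1%), Coasy (coenzyme A synthesis, -0.54, 56.2%) and Cacna1a (a calcium channel subunit, -0.58, 58.8%). For Acsf2 the libraries had 119, 91.9, 165, 163 and 226 CPM against 156 to 229 CPM in WT BAT, with libraries 1 and 2 below that range. For Coasy all KO-labelled libraries (72.8 to 163 CPM) lay below all WT BAT libraries (176 to 191 CPM). Coasy was called lower than WT BAT in 3 of 20 fits that left out 1 library. Lonp1 lost its call against WT iWAT in 15 of 20 fits that left out 1 library. Cacna1a lies within 10 Mb of Ucp1 on chromosome 8, as do 6 of the brown genes in all, so its level in the KO-labelled libraries cannot be told apart from sequence around the targeted locus.

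Acot2, a mitochondrial acyl-CoA thioesterase, and Agpat2, an enzyme of triglyceride synthesis, were picked out after their values were seen. They reached shares of 81.5% and 56.5% and had differences to WT BAT of -0.26 (95% interval -1.26 to 0.75) and -0.57 (-1.13 to -0.02), neither of them resolved. The number of brown genes within 2-fold depended on the scaling and the libraries used, with 152 under library totals, 12 without KO-labelled library 3, 33 without library 2, 40 without the 3 iWAT libraries of high lymph node score and 10 without the 4 of high muscle score.

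The respiratory chain passes electrons from NADH and succinate to oxygen and feeds the proton gradient that UCP1 or ATP synthase uses. All 37 genes of complex I and all 14 of complexes II and III were below WT BAT, with medians of -1.62 and -1.81, and 32 and 14 of them were called higher than in WT iWAT. Ndufv1, the NADH-binding subunit, had 257, 159, 339, 340.3 and 392 CPM in KO-labelled iWAT, 1317 to 1434 CPM in WT BAT and 127 ± 10.1 CPM in WT iWAT. Every KO-labelled library lay between the others, with a difference to WT BAT of -2.20 (standard error 0.172, edgeR adjusted p = 3.51e-08). Uqcrc1, whose promoter is printed above, had 401, 249, 523, 520.3 and 726 CPM against 1756 to 1900 CPM and differed by -1.90. Cyc1, which carries cytochrome c1, differed by -1.99 and Ndufs7, an iron-sulphur subunit, by -1.91. Complex IV had 13 of 15 genes below and 11 called higher than in WT iWAT, and ATP synthase 12 of 16 and 9. Atp5a1, the alpha subunit of its F1 head, had 1392 ± 443 CPM against 4833 ± 101 and differed by -1.80. Atp5g1 went the other way, with 27.7 ± 10.5 CPM against 5.73 ± 1.06 (2.27, edgeR adjusted p = 0.00128), close to its 33 ± 10.3 CPM in WT iWAT. It has near-identical copies that may share its reads.

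Without the 4 iWAT libraries of high muscle score the calls against WT BAT stood in all of these complexes, 37, 14, 13 and 12, but those against WT iWAT numbered 0 of 37, 2 of 14, 3 of 15 and 0 of 16, with medians of 0.69, 0.97, 0.82 and 0.58 in place of 0.89, 1.15, 0.91 and 0.80. Over all genes, those called higher than in WT iWAT fell from 645 of 16811 to 204 of 16449. With all libraries and the muscle score as a covariate, the calls against WT iWAT were 32 of 37, 14 of 14, 11 of 15 and 9 of 16. The part of muscle RNA in these calls was not tested.

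Enzymes of the matrix were also low. All 18 citric acid cycle genes were below WT BAT (median -1.89) and 16 were called higher than in WT iWAT. Of 22 fatty acid oxidation genes, 19 were below WT BAT (median -1.74) and 17 called higher than in WT iWAT. Acaa2, the last step of beta-oxidation, differed from WT BAT by -2.51 and Hadhb, a subunit of the trifunctional protein, by -2.09. The carnitine palmitoyltransferase that admits fatty acids to mitochondria has isoforms that parted here. Cpt1b, the isoform of muscle and brown fat, had 201, 97.5, 277, 272 and 489 CPM against 1426 to 1830 CPM, 6.18-fold below WT BAT. Cpt1a, the liver isoform and picked out after its values were seen, had 93.8 ± 9.52 CPM against 32.4 ± 2.51, 2.89-fold above WT BAT (edgeR adjusted p = 3.87e-05), with 94.9 ± 11.7 CPM in WT iWAT.

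Genes of the mitochondrial ribosome, which makes the proteins encoded in mitochondrial DNA, lay nearer to WT BAT on the log2 scale, in WT iWAT as well. Of 76, 75 were called lower, 49 were below and 27 within 2-fold (median -0.90, and -1.39 for WT iWAT), and 32 were called higher than in WT iWAT. Mrps36 (-2.23), which belongs to this list by its name, and Mrpl34 (-2.14) had the largest deficits of the list. With library totals in place of TMM factors 9 were below and 66 within 2-fold. Without the iWAT libraries of high muscle score 2 were called higher than in WT iWAT, and so were 4 of 18 citric acid cycle and 7 of 22 fatty acid oxidation genes.

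Lipogenesis makes new fatty acids from glucose, and brown fat runs it side by side with oxidation. Of 15 lipogenic genes, 3 were below WT BAT, 5 within 2-fold and 7 not resolved, with a median of -0.29 that turned to 0.21 with library totals. Acacb, the acetyl-CoA carboxylase at the mitochondrial surface, differed by -1.78 and Mlxipl, the glucose-sensing factor ChREBP, by -2.03. Scd1, the stearoyl-CoA desaturase, was within 2-fold (-0.13) and had 0.25 to WT iWAT. Elovl6, an elongase picked out after its values were seen, had 545 ± 273 CPM against 1267 ± 183 in WT BAT and 65.1 ± 26.1 in WT iWAT. The KO-labelled libraries lay between both, with differences of -1.22 (edgeR adjusted p = 0.0139) and 3.07 (edgeR adjusted p = 0.00023). Triglyceride synthesis had 5 of 10 genes below and 1 within 2-fold (3 and 6 with library totals), and Gpd1, the glycerol-3-phosphate dehydrogenase, was among those below (-1.85). Lipid uptake and lipolysis had 10 of 20 within 2-fold, near the 47.0% of all genes, 5 below and 2 above, with a median of -0.25 that became 0.26 with library totals. Slc27a2, a fatty acid transporter and acyl-CoA synthetase, had 32.1, 5.99, 15.5, 20 and 58.9 CPM against 186 to 524 CPM and differed by -3.56. The groups did not overlap, although every KO-labelled library was above the 0.424 to 1.39 CPM of WT iWAT. Plin4, a droplet coat protein of white adipocytes, was above WT BAT (1.05), but was not called without KO-labelled library 3 or WT BAT library 1 or 2.

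Glucose use had 16 of 21 genes below WT BAT and 11 called higher than in WT iWAT (5 without the libraries of high muscle score). Ldhb, the lactate dehydrogenase of oxidative tissues, differed from WT BAT by -2.51 and Pdk4, which turns pyruvate dehydrogenase off when fat is burned, by -2.0. Pdk4 had 1303 ± 838 CPM against 5212 ± 747 in WT BAT and 170 ± 50.5 in WT iWAT.

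Of 31 transcriptional regulators, 16 were below WT BAT, 9 within 2-fold and 2 above, and 5 were called higher than in WT iWAT (Ppara, Esrra, Ppargc1b, Cebpb and Esrrg). With library totals 8 were below, 14 within 2-fold and 3 above. Ppara, the fatty acid sensing nuclear receptor, had 62.3, 59.5, 126, 153 and 290.0 CPM in KO-labelled iWAT, 644 to 734 CPM in WT BAT and 13.3 ± 4.41 CPM in WT iWAT. It was 5.03-fold below WT BAT (edgeR adjusted p = 3.38e-05) and 10.4-fold above WT iWAT. Esrra, an orphan receptor that drives mitochondrial genes, had 41.0, 34.2, 44.1, 39.1 and 51.3 CPM against 123 to 152 CPM and 21.9 ± 3.47 CPM in WT iWAT. All 5 libraries lay between the other groups, and it differed by -1.76 from WT BAT and by 0.93 from WT iWAT. Its relative Esrrg (-2.34), the coactivator Ppargc1b (-2.89) and Cebpb (-1.68) were also below WT BAT, and Ppargc1b lost its call against WT iWAT in 14 of 20 fits that left out 1 library.

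Pparg, the master regulator of adipocytes, and Ebf2, a selector of brown precursors, were below WT BAT by -1.04 and -1.10 while their differences to WT iWAT were 0.04 (edgeR adjusted p = 0.953) and 0.00 (edgeR adjusted p = 0.997). Ebf2 had 51.4, 19.6, 45.2, 56.0 and 61.2 CPM in KO-labelled iWAT against 82.7 to 142 CPM in WT BAT. Tfam, which packs mitochondrial DNA, was below by -0.85 and had 0.34 to WT iWAT (edgeR adjusted p = 0.113). With library totals Pparg (-0.54), Ebf2 (-0.60) and Tfam (-0.31) were not called against WT BAT. Nrf1, a regulator of nuclear genes for mitochondria, was within 2-fold of WT BAT (0.11), with 16.5 ± 2.46 CPM, 15.3 ± 1.43 in WT BAT and 17.3 ± 3.28 in WT iWAT.

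The adrenergic, cAMP and thyroid list, which carries the cold signal, had 9 of 16 genes below WT BAT, 4 within 2-fold and 2 above, and 2 were called higher than in WT iWAT. Neither was without the iWAT libraries of high muscle score, and with library totals 6 were below and 3 within 2-fold. Adrb3, the beta-adrenergic receptor of adipocytes, had 442 ± 118 CPM against 467 ± 101 in WT BAT and 491 ± 178 in WT iWAT, with a difference of -0.08 to WT BAT. Adrb1, the receptor of brown precursors, was below (-2.07), as was the thyroid hormone receptor Thrb (-1.71). Adcy5, an adenylyl cyclase, and Adra2a, the receptor that opposes beta signals, were above WT BAT by 2.82 and 3.30 with differences to WT iWAT of -0.62 and -0.41, neither called.

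Genes of heat production that does not need UCP1, through creatine, calcium or N-acyl amino acid cycling, showed no common direction. Of 14 tested, 3 were below, 2 within 2-fold, 3 above (20.6% of all genes, so a share near that of all genes) and 6 not resolved, and the median of 0.84 became -0.12 with the muscle score as a covariate and -0.52 without the libraries of high muscle score, where 5 were below and 4 above. Pm20d1, which makes N-acyl amino acids, had 7.46 ± 2.86 CPM against 39.0 ± 3.21 (-2.39) and 5.20 ± 2.21 in WT iWAT. Ryr2, a calcium release channel, was the 1 member called higher than in WT iWAT (2.11, edgeR adjusted p = 0.00189) and was within 2-fold of WT BAT (-0.06). Atp2a2, the calcium pump SERCA2, was called lower than WT BAT but within 2-fold (-0.64, and not called with library totals), and Gatm, which makes the precursor of creatine, was above (1.45).

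Among the lineage genes of classical brown fat, Zic1, a transcription factor, had 3, 1, 0, 0 and 0 reads in KO-labelled iWAT and 101 to 219 reads in WT BAT (3.97 to 8.0 CPM), so WT BAT was at least 73.3-fold higher, counted against a floor of 3 reads per library. Its neighbour in the same family, Zic4, was at least 19.2-fold higher in WT BAT. Of the 8 lineage genes tested, 4 were below WT BAT, 1 within 2-fold, 2 above and 1 not resolved. Mpzl2, a cell adhesion protein, was below (-2.73) and was the 1 member called higher than in WT iWAT (2.16). Fbxo31, a subunit of a ubiquitin ligase, had 27.5 ± 9.50 CPM against 87.9 ± 23.3 in WT BAT and 27.3 ± 1.5 in WT iWAT. Lhx8, a homeobox factor, was called lower than both, by -1.0 to WT BAT and by -1.14 to WT iWAT, the former not with library totals and the latter not without KO-labelled library 3 or 5. Meox2 did not separate the groups (-0.09), and En1 and Epsti1 were above WT BAT, En1 not without the libraries of high muscle score. The Epsti1 level of 40.6 ± 59.7 CPM was drawn by library 2 at 147 CPM, the library of high lymph node score.

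Genes proposed as beige markers showed 7 of 10 above WT BAT with a median of 2.37, but WT iWAT had a median of 2.67 and 2 of the 10 were called higher than in WT iWAT (1 without the libraries of high muscle score). Tmem26 and Tbx1 were at least 37.6-fold and 15.5-fold above WT BAT, with differences to WT iWAT of -0.06 and -0.15. Klhl13 (2.13) and Ear2 (3.76) were above WT BAT as well, and Cited1 was above by 1.87 but not when library 1 of KO-labelled iWAT was left out. Those called higher than in WT iWAT were P2rx5, an ATP-gated channel, and Slc36a2, an amino acid transporter, and both were below WT BAT. P2rx5 had 13.5, 12.0, 28.1, 26.0 and 24.4 CPM against 130.2 to 161 CPM and reached 11.6% of the WT gap. Slc36a2 had 473, 268, 554, 520 and 659 CPM against 948 to 1181 CPM and reached 30.7%, though its call against WT iWAT was lost in 8 of 20 fits that left out 1 library. Slc7a10, an amino acid transporter of white adipocytes counted in this list, had 324, 172, 224, 194 and 155 CPM against 5.88 to 38.1 CPM.

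Most white adipocyte genes stayed above WT BAT. Of 12 tested, 8 were above WT BAT, 1 (Igfbp3, -0.92) below and 3 not resolved, with a median of 3.05 against 3.67 in WT iWAT. Their median difference to WT iWAT was -0.62, and 0 were called higher or lower than in WT iWAT. Igfbp3 lost its call against WT BAT in 10 of 20 fits that left out 1 library, and with library totals (-0.35). Retn, which encodes resistin, had 893, 564, 997, 799.8 and 586 CPM in KO-labelled iWAT, 25 to 123 CPM in WT BAT and 866 ± 226 CPM in WT iWAT. Against WT BAT the difference was 3.44 (edgeR adjusted p = 1.22e-06), and against WT iWAT it was -0.17 with a 95% interval of -0.93 to 0.59. Dpt (a matrix protein, 3.04), Nnat (4.44), Psat1 (serine synthesis, 3.68) and Sncg (4.28) were also above WT BAT. Leptin (Lep) had 222 ± 167 CPM against 30.7 ± 18.9, with a difference of 2.85 (edgeR adjusted p = 0.0129).

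HOX genes, whose order along the chromosome follows position along the body axis, differed from WT BAT in both directions. Of 28 tested, 9 were below WT BAT, 13 above, 4 within 2-fold and 2 not resolved, and 0 were called against WT iWAT, where Hoxa4 had the difference nearest to a call (0.83, edgeR adjusted p = 0.0338). Hoxa5 had 3.24, 2.83, 3.78, 3.86 and 2.93 CPM against 27.1 to 33.3 CPM in WT BAT, a difference of -3.16 (edgeR adjusted p = 3.71e-09), and Hoxa4 differed by -2.96. Hoxc10 had 954, 450, 717, 654 and 744 reads against 0, 0, 2, 1 and 0 in WT BAT, at least 160-fold higher over the floor. Hoxa10 and Hoxc9 were at least 65.5-fold and 45.8-fold higher, and Hoxa9 and Hoxc8 were above by 3.08 and 3.18. The 9 genes below WT BAT belong to the Hoxa, Hoxb and Hoxc clusters, whereas the 4 called genes of the Hoxd cluster were all above, Hoxd3 (1.22) and Hoxd4 (1.08) as well as Hoxd9 (1.82) and Hoxd10. With library totals 4 HOX genes were below and 19 above, where 808 and 6356 of all 16811 genes were.

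**Figure D5:**
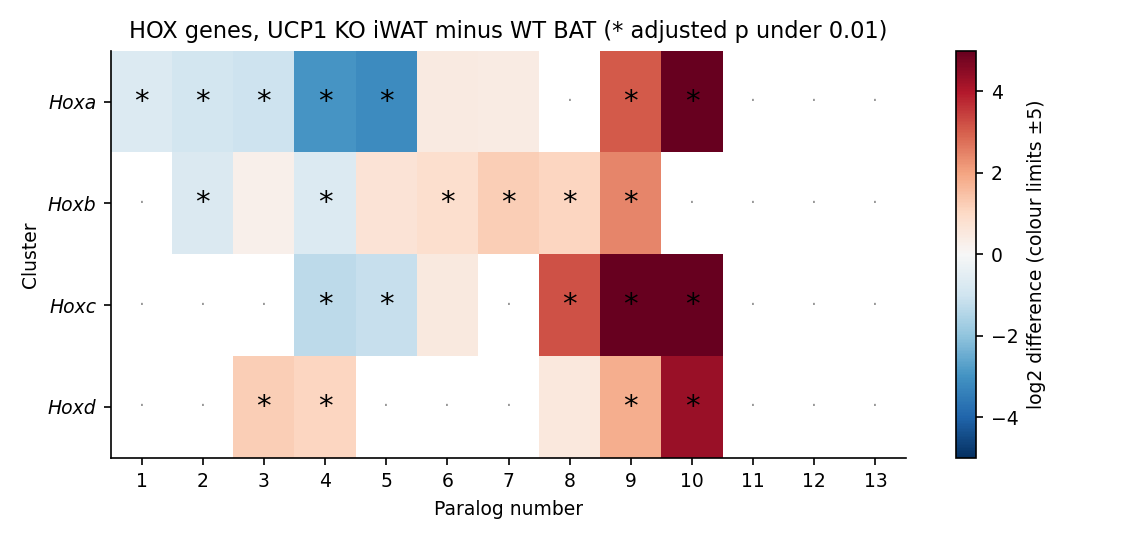
Log2 difference of KO-labelled iWAT to WT BAT for the HOX genes tested, by cluster (rows) and paralog number (columns), with a star at an adjusted p under 0.01 and a dot where no gene was tested. All 9 called negative differences (blue) lie at numbers 1 to 5 of the Hoxa, Hoxb and Hoxc clusters, and the 13 called positive ones (red) at number 6 and above or in the Hoxd cluster.

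Of 18 genes for secreted proteins, 8 were above WT BAT (20.6% of all genes), 5 below (11.5%), 1 within 2-fold (47.0%) and 4 not resolved, and 4 were called higher than in WT iWAT (3.84%). These were Fgf21, Gdf15, Bmp8b and Kng2, and Gdf15 lost its call in 10 of 20 fits that left out 1 library. With library totals 11 were above, 2 below and 4 within 2-fold, against 6356, 808 and 6698 of all 16811 genes. Fgf21, a hormone that induces browning, had 0.699, 0.504, 5.07, 7.72 and 10.8 CPM in KO-labelled iWAT and 0.275 to 0.351 CPM in WT BAT. All 5 libraries were above WT BAT, libraries 1 and 2 by little, and the difference was 4.02 (edgeR adjusted p = 0.000112). Gdf15, a stress hormone, was above by 3.41. Bmp8b, which sensitises brown fat to adrenergic signals, had 0.324, 0.329, 4.35, 4.45 and 9.70 CPM against 0.335 to 1.81 CPM in WT BAT. Libraries 3 to 5 were above WT BAT and libraries 1 and 2 at or below its lowest value, so the difference of 1.93 was not called (edgeR adjusted p = 0.0307), while WT iWAT was at or under 3 reads and at least 63.1-fold lower (39.0-fold without library 5). Paralogs of Bmp8b may share its reads. Kng2, a kininogen, was below WT BAT (-3.06) and called higher than in WT iWAT (5.86). Ptgds, a prostaglandin D synthase, differed from WT BAT by -4.48 on the log2 scale, with 0.620 ± 0.108 CPM against 14 ± 4.95, and Nrg4 and Vegfa, signals to nerves and vessels, differed by -0.93 and -1.13, Nrg4 not called with library totals.

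The brown genes with the most negative fitted differences to WT BAT were Zic1, Zic4, Them7, Clec18a, Tmem102 and Rab17, which iWAT hardly expresses. A fitted value near the count floor does not fix their order, and the limits for Zic4, Them7, Clec18a and Tmem102 lie under the 23.4-fold deficit of Ucp1. WT BAT was at least 8.09-fold (Them7), 13.3-fold (Clec18a) and 17.6-fold (Tmem102) higher, and Rab17, a small GTPase, had 0.0493 ± 0.0366 CPM against 1.48 ± 0.449 (-4.78). In all, 200 brown genes were below WT BAT and within 2-fold of WT iWAT, a class that was not counted over all genes. At the other end, over all genes, the highest fitted differences were those of Hoxc10, Hoxa10, Slc5a7, Marco and Apol7c, an order that is likewise not established where WT BAT is at the floor. Slc5a7, a choline transporter of neurons, was at least 14.2-fold above WT BAT, where it had 0 reads. Library 3 at 4.73 CPM carried that limit, which was 7.63-fold without it, and both values lie under the limits given for Hoxc9 and Tmem26 (45.8-fold and 37.6-fold). Marco and Apol7c, expressed in macrophages and dendritic cells, were carried by library 2 with 190.1 and 234 CPM, against 0.548 to 1.62 and 0.649 to 1.33 CPM in the other 4 libraries. Their differences of 8.56 and 8.32 became 3.28 and 2.86 without that library and were then not called, and Apol7c was also not called without any 1 of WT BAT libraries 1 to 4.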

How the data were processed

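The authors isolated RNA, made stranded poly(A) libraries, aligned reads to mm10 (GRCm38) with STAR and counted them per gene with HTSeq. The deposited values are raw read counts per gene for 32698 genes, 1 file per library, and nothing was normalized. A row that names no gene held at most 2.42e-05% of counts and was left out.

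Groups were taken from the labels. The members and gene lists were chosen with earlier results of these data known. The study's filter kept 16811 genes, those whose highest count passed 15 and total count passed 75 and that had zeros in at most 10 of 20 libraries. TMM factors and edgeR's quasi-likelihood test (version 4.0.16, R 4.3.3) were fitted to the 20 libraries of WT and UCP1 KO BAT and iWAT, with Benjamini-Hochberg adjustment over all tested genes and a threshold of 0.01. A gene was below or above WT BAT when called with a 95% interval that was not wholly within 2-fold, and within 2-fold when the interval was. Brown genes came from a separate fit of 10 FGF21 KO libraries. The gap share is the difference of the KO-labelled iWAT and WT iWAT mean CPM over that of WT BAT and WT iWAT. A fold against a group at the floor used 3 counts per library. Genes that could be named were members of the thermogenic, lineage, beige, white, regulator and secreted lists, called HOX genes, up to 4 largest and 2 smallest differences of the other lists, the 6 largest deficits by fitted log2 difference and 6 most expressed genes within 2-fold among brown genes, and the 5 largest fitted excesses. Not every such gene is named, 1 is not reported here, and exceptions are given in the text.

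On simulated counts the test recovered 98%, 84% and 76% of 50 genes each at log2 differences of -3, -2 and -1.5, with 1 false call among 16120 genes. The simulation gave every group the same spread and changed few genes, so these rates need not hold for the libraries compared here. No 2 of the 20 libraries were identical (190 pairs). Depths of at least 30298958 counts make counting error small for all but the genes at the floor, and intervals cover the spread between libraries. Alternatives were DESeq2 1.42.0, other scaling and filters, fewer or more libraries, a muscle score covariate and other definitions of brown genes. Promoters came from RefSeq (GRCm38.p6), and 11792 of 16811 tested genes had one. Promoters are not shown for Elovl3, Cpt1b and Hoxc10. Figures were drawn with matplotlib 3.10.9.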

Additional observations from a re-analysis of the deposited data

Results flagged for a closer look

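In 18 of 226 groups of 5 libraries 1 library lay far from the other 4, where chance gives about 1 in 20 groups. In KO-labelled iWAT, library 2 was the high one for Epsti1 (147 CPM), Igfbp3 (34.0 CPM), Nrf1 (20.9 CPM), Marco (190.1 CPM), Apol7c (234 CPM) and the lymph node score (6.93), and the low one for Nrg4 (55.0 CPM). Library 1 was high for Atp5g1 (46.0 CPM) and low for Ryr2 (1.25 CPM), and library 3 was high for Slc5a7 (4.73 CPM).

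In WT BAT, library 4 was low for Cox7a1 (468 CPM) and high for Meox2 (25.9 CPM), Sncg (40.3 CPM) and the macrophage score (4.22). Library 5 was high for Cited1 (0.806 CPM), Ebf2 (142 CPM), Nrf1 (17.8 CPM) and Fgf21 (0.351 CPM).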

How the results depend on the processing

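No paired analysis was possible because the labels give no replicate numbers that link libraries. With library totals in place of TMM factors the median of all genes went from 0.11 to 0.65, 1278 genes were lower and 8137 higher than in WT BAT in place of 3367 and 3989, 152 brown genes were within 2-fold in place of 19 and 3 above in place of 0, and the brown medians were -1.03 for KO-labelled and -1.71 for WT iWAT. Meox2 turned to 0.43 (edgeR adjusted p = 0.00819). With brown genes taken at 2-fold (2581 genes), 1677 were below and 591 within 2-fold, 2335 were lower in WT iWAT, and the medians were -0.99 and -1.37. With brown genes defined in WT (741 genes), 3 were within 2-fold and the WT iWAT median was -2.70. That list was picked from the same WT libraries, so a low WT iWAT median follows from its definition. Brown genes above WT BAT numbered 1 with DESeq2, 2 at a threshold of 0.05 and 2 without the 3 iWAT libraries of high lymph node score, where 40 were within 2-fold. The next alternatives were chosen after seeing the data. Without the 4 iWAT libraries of high muscle score 10 were within 2-fold and 120 higher than in WT iWAT (main value 426), where 204 of all genes were (main value 645). The brown count was 88 in the 20 iWAT libraries (103 of all genes) and 1 in the 10 of UCP1 KO and WT (1 of all genes). The cause was not tested. The fit without the 4 libraries and that of the 10 held fewer libraries than the main fit, whereas that of the 20 iWAT libraries held as many.

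Leaving out 1 library at a time gave 2904 (without WT BAT library 2) to 3522 genes lower and 3507 to 4148 higher, 787 to 824 brown genes below, 12 (without KO-labelled library 3) to 33 (without library 2) within 2-fold, 0 to 2 above, 281 (without library 3) to 613 (without library 2) higher than in WT iWAT and 908 to 927 lower in WT iWAT. The medians ran from -1.66 to -1.39 and from -2.45 to -2.39, and the share from 14.8% to 23.1%. Of 2277 single-gene comparisons under the alternatives, 2103 kept their side of the threshold, 135 lost a call, 38 gained one and 1, that of Meox2, reversed. Direction was compared only where the main or the alternative fit called the gene, so changes of sign among uncalled genes are not counted. Depth limits genes such as Zic1, whose iWAT counts are at or under 3.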
